A study of Mus with 18 samples.

Results

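Guanylate-binding proteins (GBPs) and immunity-related GTPases (IRGs) were followed across the control, LPS and LPS-MIC-1 libraries of a mouse RNA-seq study of lipopolysaccharide (LPS) and moringa isothiocyanate-1 (MIC-1), an isothiocyanate from Moringa oleifera seeds. The set was chosen by gene symbol and holds 10 genes, the 4 GBPs Gbp2, Gbp3, Gbp5 and Gbp7 and the 6 IRGs Irgm1, Irgm2, Igtp, Iigp1, Tgtp1 and Ifi47. Of these, 8 had a row among the 21401 genes of each expression table, the same 8 in both, and Gbp7 and Tgtp1 had none under their symbols. Tgtp2, a separate RefSeq gene whose symbol is also listed as an older name of Tgtp1, had a row in both tables and is described with the other IRGs. All 8 passed the filter of a mean above 1 FPKM (fragments per kilobase, scaled to the reads of the library, a level per transcript length) in muscle, and 7 of the 8 in the cells, where Iigp1 averaged 0.110 FPKM over the 9 libraries.

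GBPs and IRGs are large GTPases that cells make after interferon signalling, with the help of interferon regulatory factors. GBPs coat cytosolic bacteria and the vacuoles of intracellular pathogens and help caspase-11 and the AIM2 inflammasome to sense bacterial lipopolysaccharide and DNA. IRGs work at the same membranes as a pair of classes: Irgm1, Irgm2 and Igtp (also called Irgm3) are regulators that guard the cell's own membranes, and Iigp1, Tgtp1 and Ifi47 are effectors that load onto the pathogen's vacuole with the help of the ATG8 conjugation machinery. The genes lie in clusters: in the order of the RefSeq mouse genes (GRCm38.p6), Gbp5, Gbp7, Gbp3, Gbp2b (named Gbp1 in these tables) and Gbp2 follow one another, Igtp is next to Irgm2, and Tgtp2 is next to Ifi47.

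The data comprised 18 libraries of wild type samples, 3 in each of 6 groups. C2C12, a mouse myoblast line, was given saline vehicle, LPS at 1 μg/mL, or LPS at 1 μg/mL with MIC-1 at 10 μM for 24 h, as the labels have it (the study's account of its transcriptome names a lower MIC-1 concentration). Male C57BL/6 mice received vehicle, an intraperitoneal LPS injection of 10 mg/kg, or the same LPS after MIC-1 by gavage at 80 mg/kg daily for 3 days, and the gastrocnemius, a calf muscle, was taken 16 h after LPS. No group received MIC-1 without LPS. Neither the labels nor the methods say that each library was a separate culture or animal, so p-values measure the spread between these libraries, which may be technical.

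The markers of cell identity went against the label in 6 of the 9 C2C12 libraries. The 19 macrophage markers found summed to between 14768 and 14831 FPKM in the control libraries and between 9455 and 9734 FPKM in the LPS libraries, whereas the 11 myogenic markers summed to at most 3.45 FPKM there. In the LPS-MIC-1 libraries the macrophage sum was 345, 90.1 and 118 FPKM and the myogenic sum 1081, 1128 and 1441 FPKM. Cdh15, the cadherin of muscle precursors, was listed at 0 in 4 of the 6 control and LPS libraries and reached 166 to 192 FPKM with LPS-MIC-1. Every difference between LPS-MIC-1 and the other cell groups therefore coincided with a change of marker genes from macrophage to myogenic, and the treatment and the kind of cell cannot be told apart. Read depth was not given in the files. The authors' mean normalised counts of the members ran from 2.30 for Iigp1 to 532 for Irgm1 in the tables for the cells and from 78.3 for Gbp3 to 618 for Iigp1 in those for muscle.

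Changes were fitted with limma on log2(FPKM + 0.1), separately for cells and muscle, with p-values adjusted by the Benjamini-Hochberg procedure over the 10877 genes tested in the cells and the 9475 in muscle. A gene was called when its log2 fold change exceeded 1 in size and its adjusted p was under 0.001 in the cells or under 0.05 in muscle, the thresholds of the study's methods. The pseudocount of 0.1 understates changes of genes with low FPKM. Members of these families resemble one another in sequence, so reads may have been split between them in quantification, and single values, above all those of Gbp3, are uncertain for that reason.

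In the libraries labelled C2C12, LPS raised 3 GBPs from near 0 and 1 IRG from a level already present. Gbp2, which gathers on the vacuoles of intracellular parasites, stood at 0.0655, 0.108 and 0.0427 FPKM in the control libraries and at 5.41, 4.98 and 5.11 FPKM in the LPS libraries. Gbp5, which promotes assembly of the NLRP3 inflammasome, stood at 0.0703, 0.0870 and 0.0516 FPKM without LPS and at 5.44, 5.12 and 5.13 FPKM with it. Both genes were barely present in any control library and were close to one another in every LPS library. The log2 fold change was 4.95 ± 0.18 (SE, adjusted p = 2.11e-07) for Gbp2 and 4.98 ± 0.44 (SE, adjusted p = 2.30e-05) for Gbp5. Because the control values are so low, these sizes moved with the pseudocount and other settings, between 2.52 and 6.06 for Gbp2 and between 2.54 and 6.06 for Gbp5. Gbp3 stood at 0.385, 0.361 and 0.277 FPKM in control and at 3.12, 1.54 and 2.68 FPKM in LPS libraries, with the second LPS library lower than the others but above every control. Its log2 fold change was 2.48 ± 0.29 (SE, adjusted p = 0.000124), and under quantile normalisation it was 1.93 and not called (adjusted p = 0.0196).

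The 3 regulatory IRGs were present before LPS, and 1 of them, Irgm1, was called higher with it. Irgm1, a regulator linked to autophagy and control of mycobacteria, stood at 6.82, 6.17 and 7.02 FPKM in control and at 21.1, 18.5 and 21.2 FPKM in LPS libraries. It was 3.03 times higher with LPS, a log2 fold change of 1.59 ± 0.19 (SE, adjusted p = 0.000158), although leaving out control replicate 2, LPS replicate 1 or LPS replicate 3 put the adjusted p at 0.0011, 0.00113 and 0.00113, just past the threshold. Irgm2 stood at 3.49, 3.43 and 3.17 FPKM in control and at 5.49, 4.88 and 5.58 FPKM in LPS libraries. Igtp stood at 5.74, 5.73 and 5.30 FPKM and at 9.45, 8.06 and 8.74 FPKM in the same order. The groups did not overlap for either gene, but the log2 fold changes of 0.64 ± 0.29 (SE, adjusted p = 0.0828) for Irgm2 and 0.63 ± 0.13 (SE, adjusted p = 0.00343) for Igtp did not meet the call.

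The 2 effector IRGs stayed low. Ifi47 stood at 0.803, 0.699 and 0 FPKM in control and at 3.23, 1.99 and 0.799 FPKM in LPS libraries, so that the lowest LPS library lay just under the highest control library, and its log2 fold change was 2.15 ± 0.86 (SE, adjusted p = 0.0601). Iigp1 stood at 0.0346, 0.103 and 0.0677 FPKM in control and at 0.103, 0.247 and 0.347 FPKM in LPS libraries, which overlapped. It was not fitted, and an exact permutation test gave p = 0.2 (two-sided, 3 against 3 libraries), where 0.1 is the smallest p this design allows.

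In all, 4 of the 8 members were called higher with LPS in the cells, against 10.9% of all genes tested, and in 6 of the 8 every LPS library lay above every control library, against 39.4% of genes. None was called lower by limma (0 also at an unadjusted p under 0.05), where 10.0% of genes were. Gbp2, Gbp3, Gbp5 and Ifi47 averaged under 1 FPKM in control and passed the filter through their LPS libraries, so this count is a description and no support. The median log2 fold change of the 7 tested was 2.15, and that of all genes tested was 0.

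**Figure D1:**
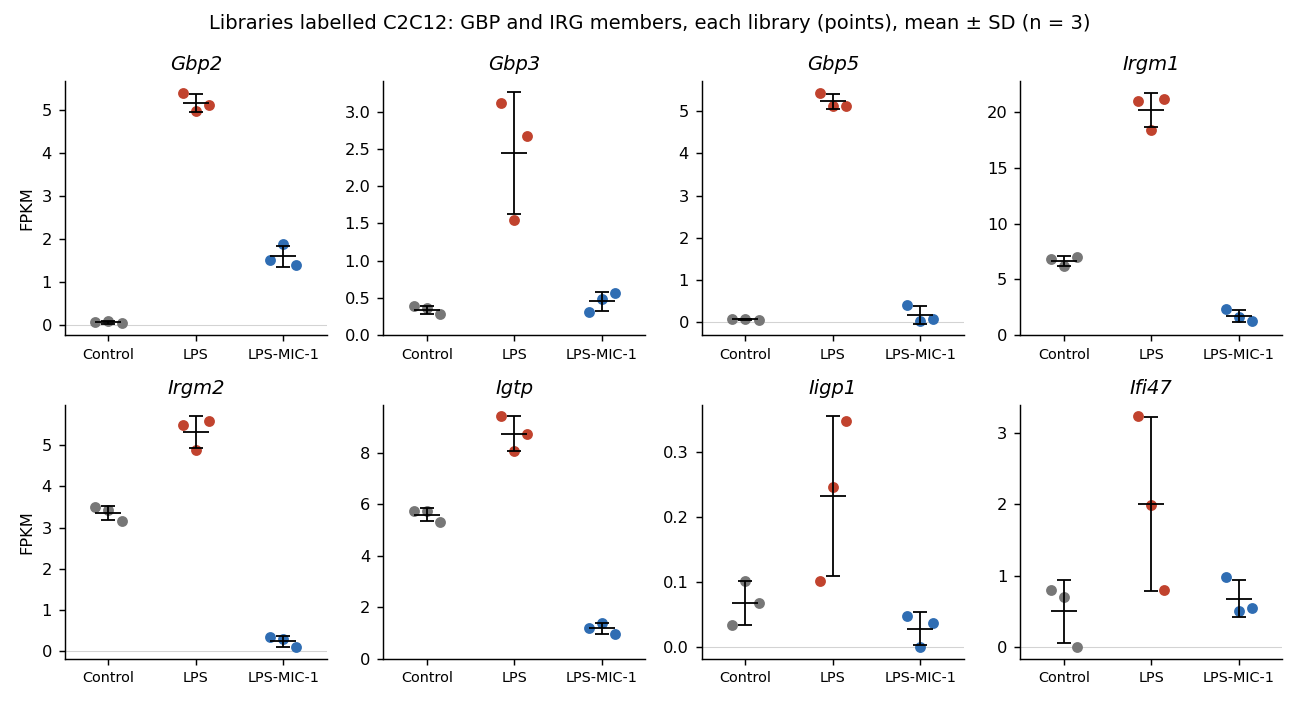
FPKM (y axis, each panel on its own scale) of the 8 members with a row in each of the 9 libraries labelled C2C12, by group (x axis); points are libraries, and the dash and bars are the mean and SD (n = 3). Gbp2 and Gbp5 sit near 0 in control and at 4.98 FPKM or more in every LPS library, and Irgm1, Irgm2 and Igtp fall under their control values with LPS-MIC-1.

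With LPS-MIC-1, the 3 GBPs and the 3 regulatory IRGs of the cells were called lower than with LPS, and their levels relative to control differed from gene to gene. Gbp2 stood at 1.52, 1.88 and 1.41 FPKM, below every LPS library and above every control library. It was lower than with LPS by a log2 fold change of -1.64 ± 0.18 (SE, adjusted p = 3.56e-05) and higher than in control by 3.31 ± 0.18 (SE, adjusted p = 4.94e-07), a mean 22.2 times that of the control libraries. Gbp5 stood at 0.417, 0.0399 and 0.0757 FPKM, with the first library above all controls and the second below them. Its log2 fold change was -4.51 ± 0.44 (SE, adjusted p = 1.81e-05) against LPS and 0.47 ± 0.44 (SE, adjusted p = 0.346) against control, and without LPS-MIC-1 replicate 1 these values were -5.09 and -0.11. Gbp3 stood at 0.311, 0.482 and 0.567 FPKM, within or just above the control range, with log2 fold changes of -2.18 ± 0.29 (SE, adjusted p = 0.000143) against LPS and 0.31 ± 0.29 (SE, adjusted p = 0.353) against control. Under quantile normalisation the call against LPS was lost as well (adjusted p = 0.00252).

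The 3 regulators went below their control level. Irgm1 stood at 2.31, 1.61 and 1.26 FPKM with LPS-MIC-1, under the lowest control library at 6.17 FPKM. Irgm2 stood at 0.353, 0.287 and 0.0961 FPKM and Igtp at 1.18, 1.38 and 0.972 FPKM, each also under all control libraries. Against LPS the log2 fold changes were -3.51 ± 0.19 (SE, adjusted p = 5.39e-07) for Irgm1, -4.06 ± 0.29 (SE, adjusted p = 2.45e-06) for Irgm2 and -2.80 ± 0.13 (SE, adjusted p = 2.38e-07) for Igtp. Against control they were -1.93 ± 0.19 (SE, adjusted p = 2.65e-05), -3.41 ± 0.29 (SE, adjusted p = 8.47e-06) and -2.17 ± 0.13 (SE, adjusted p = 1.27e-06) in the same order. Ifi47 stood at 0.983, 0.508 and 0.552 FPKM, overlapping both other groups, and was not called in either comparison (adjusted p = 0.194 against LPS and 0.379 against control). Iigp1 stood at 0.0482, 0 and 0.0372 FPKM, below every LPS library and overlapping control, with exact permutation p-values of 0.1 and 0.3 (two-sided, 3 against 3 libraries).

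Against LPS, 6 of the 8 members were called lower, where 25.6% of all genes tested were called lower and 24.3% higher, and in 7 of the 8 every LPS-MIC-1 library lay below every LPS library, where 43.7% of genes did. Gbp3, Gbp5 and Ifi47 averaged under 1 FPKM both in control and with LPS-MIC-1 and passed the filter through their LPS libraries, so these counts too are a description. Against control, 1 member, Gbp2, was called higher and 3, the regulatory IRGs, were called lower, where 21.1% and 22.1% of genes were. The median log2 fold change of the 7 tested was -2.80 against LPS and 0.31 against control, and that of all genes was -0.05 and -0.06. Leaving out LPS-MIC-1 replicate 1, the library with the highest macrophage sum, left these counts at 6, 1 and 3.

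The share of the LPS level left with LPS-MIC-1 was higher for most members than for the macrophage markers, and some members lay within the range of the markers. For the 14 macrophage markers above 50 FPKM in LPS, the LPS-MIC-1 libraries held between 2.11% and 6.66% of the LPS mean in replicate 1, between 0% and 3.62% in replicate 2 and between 0% and 4.33% in replicate 3, with medians of 2.80%, 0.116% and 0.0766%. The 8 members had medians of 13.1%, 11.9% and 13.6% in the same libraries. The markers, chosen for their level in LPS, had LPS means from 89.7 to 2040 FPKM, and the members from 0.232 to 20.2 FPKM. An equal FPKM left is therefore a larger share for a member, and the first LPS-MIC-1 library held 20.8% of Iigp1 at 0.0482 FPKM. Gbp2 held 29.4%, 36.3% and 27.3% of its LPS mean and Igtp held 13.5%, 15.8% and 11.1%, each above every macrophage marker in all 3 libraries. Gbp5 held 7.97%, 0.762% and 1.45%, within the range of those markers in replicates 2 and 3. Irgm2 held 6.63%, 5.39% and 1.81%, within that range in replicates 1 and 3, and Iigp1 held 20.8%, 0% and 16.0%, within it in replicate 2. These 3 genes were highest in replicate 1, the library with the highest macrophage sum, as were Irgm1, at 11.4%, 7.97% and 6.21%, and Ifi47, at 49.0%, 25.3% and 27.5%.

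**Figure D2:**
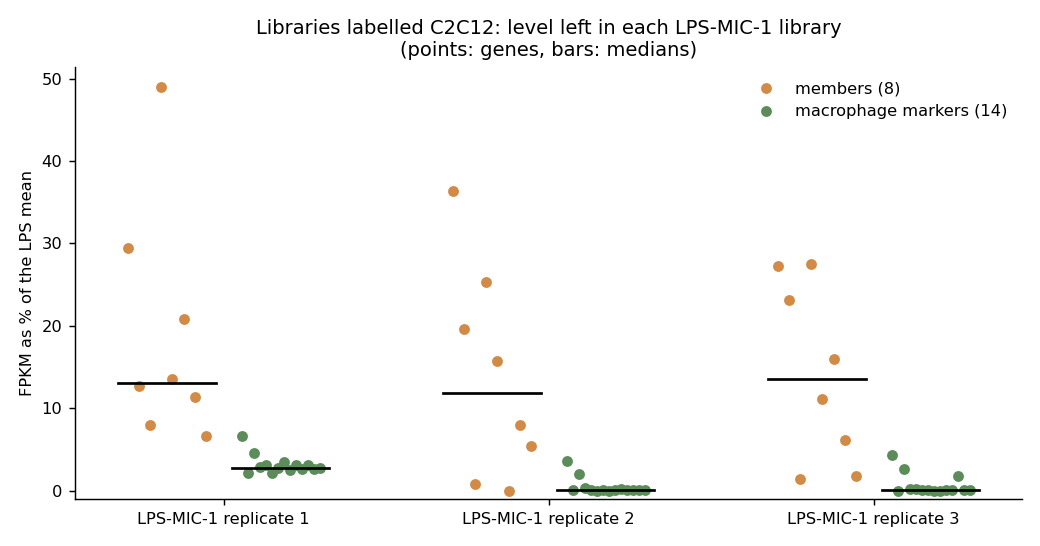
FPKM in each LPS-MIC-1 library labelled C2C12 as a percentage of the mean of the 3 LPS libraries (y axis), for the 8 members and 14 macrophage markers, by library (x axis); points are genes and bars are medians. The medians of the members lie between 11.9% and 13.6%, those of the markers between 0.0766% and 2.80%.

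In gastrocnemius muscle, LPS 16 h earlier left the GBPs and IRGs near their control levels or slightly lower. Gbp2 stood at 2.93, 2.02 and 2.91 FPKM in control and at 2.76, 2.96 and 2.42 FPKM in LPS libraries, which overlapped. Irgm2 stood at 4.84, 5.28 and 5.07 FPKM in control and at 3.63, 3.64 and 4.13 FPKM with LPS, lower in every library. Iigp1, an effector that was near 0 in the cells, stood at 6.78, 5.78 and 7.31 FPKM in control and at 4.61, 5.24 and 5.01 FPKM with LPS, also lower in every library. The log2 fold changes were -0.41 ± 0.07 (SE, adjusted p = 0.00590) for Irgm2 and -0.41 ± 0.10 (SE, adjusted p = 0.0254) for Iigp1, past the threshold on p but under the required size. Gbp5 stood at 1.89, 2.40 and 1.69 FPKM in control and at 1.49, 1.57 and 1.35 FPKM with LPS, with no overlap and a log2 fold change of -0.40 ± 0.14 (SE, adjusted p = 0.0924). No member was called by limma in either direction, 0 of 8 higher and 0 of 8 lower, where 0.654% and 0.591% of genes were, and 3 of the 8 were lower at an unadjusted p under 0.05. The median log2 fold change of the 8 was -0.24, and that of all genes tested was 0.01.

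After MIC-1 and LPS, 7 of the 8 members were higher in muscle than after LPS without MIC-1. Gbp2 stood at 35.3, 33.8 and 32.4 FPKM, 12.5 times the LPS mean, with a log2 fold change of 3.60 ± 0.14 (SE, adjusted p = 2.14e-07). Gbp5 stood at 10.6, 11.3 and 9.19 FPKM, with a log2 fold change of 2.74 ± 0.14 (SE, adjusted p = 9.57e-07). In both genes the lowest LPS-MIC-1 library lay far above the highest library of either other group. Gbp3 stood at 0, 8.92 and 3.04 FPKM with LPS-MIC-1, at 1.34, 0 and 0.601 FPKM in control and at 1.36, 0.393 and 0 FPKM with LPS. Its values were scattered within all 3 groups, which overlapped, and its log2 fold change of 1.77 ± 1.79 (SE, adjusted p = 0.432) was not called.

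The regulatory IRGs rose by less than Gbp2 and Gbp5, though not by less than every GBP outside the set. Irgm1 stood at 2.65, 1.85 and 1.73 FPKM in control, at 1.88, 1.26 and 1.79 FPKM with LPS and at 5.49, 4.90 and 4.83 FPKM with LPS-MIC-1. Irgm2 reached 20.6, 19.9 and 19.0 FPKM with LPS-MIC-1. Igtp stood at 8.74, 7.87 and 8.54 FPKM in control, at 8.46, 7.82 and 6.90 FPKM with LPS and at 20.7, 22.03 and 20.3 FPKM with LPS-MIC-1. For each of the 3, the LPS-MIC-1 libraries stood apart above all 6 others. Against LPS the log2 fold changes were 1.59 ± 0.20 (SE, adjusted p = 0.000179) for Irgm1, 2.36 ± 0.07 (SE, adjusted p = 3.69e-08) for Irgm2 and 1.43 ± 0.08 (SE, adjusted p = 1.68e-06) for Igtp. The sizes were not tested against one another.

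Both effector IRGs with a row rose as well. Iigp1 reached 26.0, 22.8 and 23.1 FPKM with LPS-MIC-1, and its log2 fold change was 2.25 ± 0.10 (SE, adjusted p = 3.48e-07) against LPS. Ifi47 stood at 0.757, 0 and 0 FPKM in control, at 0.573, 0.336 and 0 FPKM with LPS and at 9.27, 9.82 and 8.85 FPKM with LPS-MIC-1. It was listed at 0 in 3 of the 6 libraries without MIC-1 and was present in all 3 with it. Its log2 fold change against LPS was 4.93 ± 0.95 (SE, adjusted p = 0.00237) and ranged from 3.01 to 6.20 over the settings tried, since the lower group lay near 0.

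**Figure D3:**
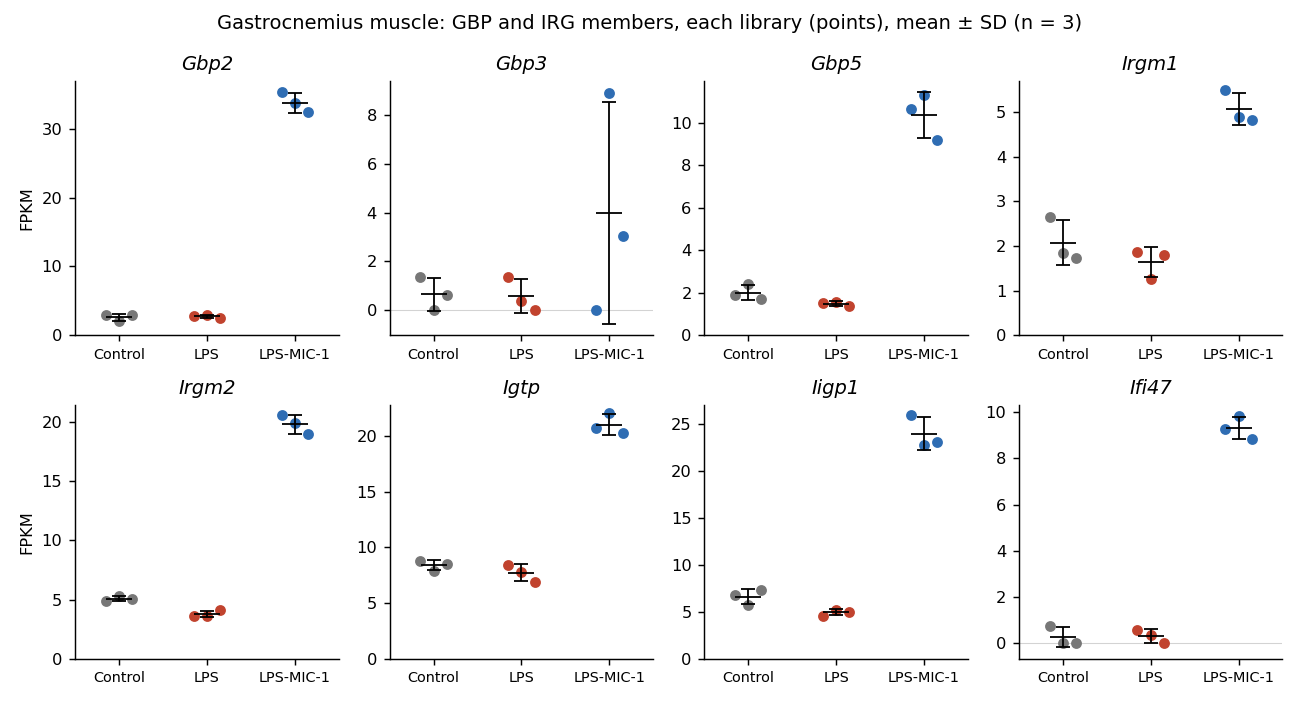
FPKM (y axis, each panel on its own scale) of the 8 members in each of the 9 gastrocnemius libraries, by group (x axis); points are libraries, and the dash and bars are the mean and SD (n = 3). In 7 panels the 3 LPS-MIC-1 libraries lie above the 6 others, and Gbp3 is scattered from 0 to 8.92 FPKM.

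In muscle, 7 of the 8 members were called higher against LPS, where 9.67% of genes tested were higher and 5.44% lower, and in 7 of the 8 every LPS-MIC-1 library lay above every LPS library, where 32.5% of genes did. Against control, to which the same LPS-MIC-1 libraries were compared, 7 of the 8 were called higher, where 9.33% of genes were higher and 6.12% lower. Gbp3 and Ifi47 averaged under 1 FPKM in the other groups and passed the filter through their LPS-MIC-1 libraries, so these counts are a description. The log2 fold changes against control were 3.66 for Gbp2, 2.33 for Gbp5, 1.27 for Irgm1, 1.95 for Irgm2, 1.32 for Igtp, 1.84 for Iigp1 and 5.52 for Ifi47, with adjusted p-values from 1.07e-07 to 0.00122. Gbp3 had 1.60 (adjusted p = 0.474). The medians were 2.30 against LPS and 1.90 against control for the 8 members, and -0.01 and 0.01 for all genes tested. Under quantile normalisation the median of all genes was -0.12 against LPS and -0.10 against control, and it turned the 916 higher and 515 lower calls against LPS into 781 and 667, and the members' calls stayed at 7.

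Marker sums of other cell types moved with the LPS-MIC-1 group in muscle. The macrophage sum was between 30.2 and 33.1 FPKM in control and between 35.8 and 38.4 FPKM with LPS, and 56.6, 56.3 and 286 FPKM with LPS-MIC-1, with 1 to 4 of the 19 markers at 0 in each library. The third LPS-MIC-1 library stood apart over the list, with a median marker at 9.11 FPKM against 1.10 and 1.20 FPKM in the other two, and Lyz2 stood there at 78.3 FPKM against 5.27 and 3.93 FPKM. The members were not higher in that library, and without it the log2 fold changes against LPS were 3.63 for Gbp2, 2.82 for Gbp5, 1.62 for Irgm1, 2.39 for Irgm2, 1.46 for Igtp, 2.28 for Iigp1 and 4.97 for Ifi47, with 7 members still called. The 10 neutrophil markers summed to between 1.86 and 3.06 FPKM in control and LPS libraries and to 15.1, 20.2 and 19.0 FPKM with LPS-MIC-1. S100a8 was near 0 in the former and between 7.25 and 7.47 FPKM in the latter. S100a9 stood at 0, 6.65 and 4.79 FPKM with LPS-MIC-1. Cxcr2 did not rise above control, at means of 1.58 FPKM in control, 1.17 FPKM with LPS and 1.44 FPKM with LPS-MIC-1. The 8 endothelial markers summed to between 103 and 107 FPKM in control, between 65.4 and 68.5 FPKM with LPS and between 107 and 123 FPKM with LPS-MIC-1. Within that list Cdh5 stayed below control with LPS-MIC-1, at means of 31.2, 18.9 and 21.95 FPKM in the same order. Cldn5 rose above control, at means of 10.2, 5.64 and 31.5 FPKM, as did Esam, at 17.6, 12.2 and 25.7 FPKM. The 11 T and NK cell markers found, from the cells that make interferon-γ, summed to at most 1.71 FPKM in any muscle library. The 8 mesenchymal and fibroblast markers summed to between 91.5 and 128 FPKM in control and LPS libraries and between 61.3 and 68.1 FPKM with LPS-MIC-1, and the 8 markers of intestinal epithelium to between 4.88 and 6.23 FPKM and between 17.8 and 19.8 FPKM. Lgals4 made up most of the epithelial sum, at means of 4.68 FPKM in control, 4.45 FPKM with LPS and 18.2 FPKM with LPS-MIC-1. Krt8 stood at means of 0.257, 0.581 and 0.359 FPKM and Epcam at 0.131, 0.198 and 0.148 FPKM in the same order. The highest median of that list in a muscle library was 0.202 FPKM, with LPS. The 5 adipose markers summed to between 287 and 290 FPKM in control, between 219 and 240 FPKM with LPS and between 314 and 342 FPKM with LPS-MIC-1. Fabp4 made up nearly all of the adipose sum, at means of 287, 227 and 325 FPKM in that order, beside Adipoq at 0.400, 0.451 and 0.689 FPKM. The 11 myogenic markers summed to between 53557 and 58568 FPKM in control and LPS libraries and between 35970 and 41436 FPKM with LPS-MIC-1. Acta1, which is also in the muscle fibre list, made up nearly all of the myogenic sum. Its means were 53989.8 FPKM in control, 53507.9 FPKM with LPS and 37248.5 FPKM with LPS-MIC-1. Des went the other way, at means of 1607, 1590 and 1788 FPKM in that order, and Myf6 stood at 94.5, 109 and 83.8 FPKM. The muscle fibre markers summed to between 167968 and 178069 FPKM in control and LPS libraries and between 130930 and 141863 FPKM with LPS-MIC-1. Their median went the other way, between 9614 and 10944 FPKM in control and LPS libraries and between 12391 and 12855 FPKM with LPS-MIC-1. The part of these other cells in the change of the GTPases was not tested, and in whole tissue fewer cells of a type and less RNA per cell cannot be told apart.

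**Figure D4:**
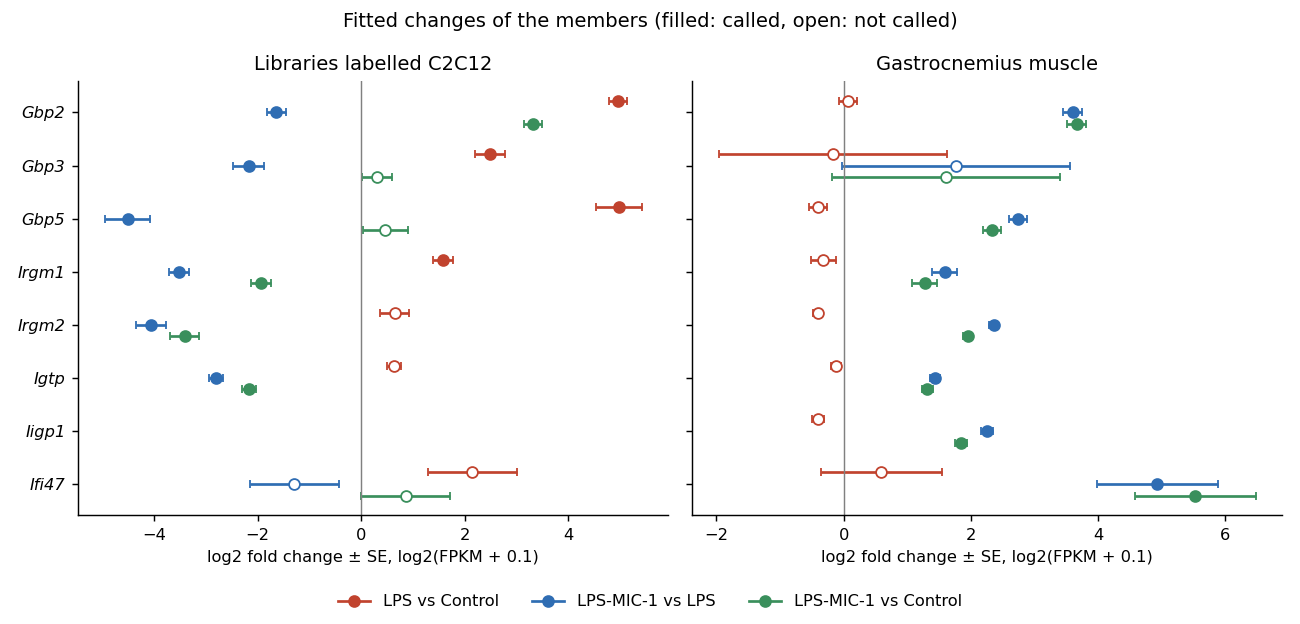
Log2 fold change of each fitted member (x axis, log2(FPKM + 0.1) scale, bars are SE) in the 3 comparisons of the cells and of muscle, by gene (y axis); filled points were called and open points were not, and Iigp1 was not fitted in the cells. Against LPS, LPS-MIC-1 points lie from -4.51 to -1.29 in the cells and from 1.43 to 4.93 in muscle.

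The make-up of the family differed between groups as well as its amount. Over the 8 members, the cells held 16.7 ± 0.745 FPKM in control, 49.4 ± 4.01 FPKM with LPS and 6.10 ± 1.09 FPKM with LPS-MIC-1 (SD, n = 3). The 3 GBPs made up 2.88% ± 0.506 of that sum in control, 26.0% ± 0.252 with LPS and 37.2% ± 5.07 with LPS-MIC-1 (SD, n = 3). Muscle held 27.7 ± 2.38 FPKM in control, 23.2 ± 1.57 FPKM with LPS and 127 ± 6.43 FPKM with LPS-MIC-1, and the GBP share there was 18.9% ± 1.55, 20.4% ± 2.70 and 37.8% ± 2.40 (SD, n = 3). In both experiments the GBP share was therefore highest with LPS-MIC-1, on a falling sum in the cells and on a rising one in muscle.

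**Figure D5:**
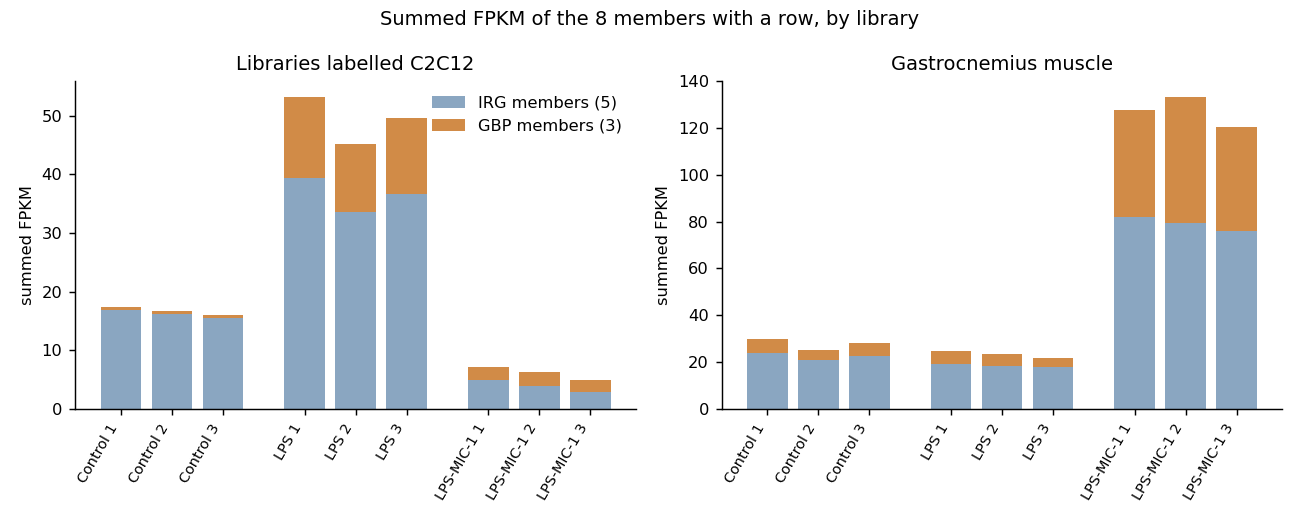
Summed FPKM (y axis, from 0) of the 5 IRG members with a row (blue) and the 3 GBP members with a row (orange), stacked, in each library (x axis). In the cells the sum is highest with LPS, at a mean of 49.4 FPKM, and in muscle it is highest with LPS-MIC-1, at 127 FPKM.

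The order of the members by FPKM changed with these shifts. In control cells Irgm1, Igtp and Irgm2 led in that order with no overlap between neighbours, and the other 5 members averaged 0.501 FPKM or less. With LPS, Irgm1 and Igtp still led, and Irgm2, Gbp5 and Gbp2 followed at 5.31, 5.23 and 5.17 FPKM with overlapping libraries. With LPS-MIC-1, Gbp2 at 1.60 FPKM stood second, overlapping Irgm1 at 1.73 FPKM. In muscle the order in control and with LPS was the same, with Igtp first, then Iigp1, Irgm2 and Gbp2, although Gbp2 overlapped Irgm1 in control. With LPS-MIC-1, Gbp2 came first at 33.8 FPKM, apart from Iigp1 at 24.0 FPKM, and Igtp and Irgm2 followed with overlapping libraries. Irgm1, first in control and LPS cells, was seventh of the 8 in LPS-MIC-1 muscle.

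Of 9 other GBP symbols searched, 7 had a row, and 2 passed the filter in the cells. Gbp1, the gene between Gbp3 and Gbp2, stood at 0.0946, 0.0749 and 0.130 FPKM in control, at 2.38, 2.68 and 2.73 FPKM with LPS and at 0.686, 0.922 and 0.896 FPKM with LPS-MIC-1. Like Gbp2, it was called higher with LPS (log2 fold change 3.76, adjusted p = 6.31e-07), lower with LPS-MIC-1 than with LPS (-1.53, adjusted p = 3.77e-05) and still above control (2.23, adjusted p = 4.10e-06). Gbp6, from the other GBP cluster, was called higher with LPS (3.51, adjusted p = 1.85e-05) and lower with LPS-MIC-1 than with LPS (-4.08, adjusted p = 2.92e-06), and was not called against control (-0.57, adjusted p = 0.106), as was the case for Gbp5. So both were called higher with LPS and both lower with LPS-MIC-1 than with LPS, where 10.9% and 25.6% of genes tested were. Both averaged under 1 FPKM in control and with LPS-MIC-1 and passed the filter through their LPS libraries, so these counts are a description. Under quantile normalisation or a pseudocount of 1 neither was called higher with LPS-MIC-1 than in control, and 1 of the 2, not both, was called lower against LPS. In muscle 3 of the 7 passed the filter. All 3, Gbp4 (4.11), Gbp9 (1.45) and Gbp6 (1.02), were called higher with LPS-MIC-1 than with LPS, where 9.67% of genes tested were. Gbp4 averaged 2.05 FPKM in control, 0.938 FPKM with LPS and 10.95 FPKM with LPS-MIC-1. All 3 had lower means with LPS than in control, none of them called. With LPS-MIC-1 against control only Gbp4 was called higher (2.40, adjusted p = 0.0439), where 9.33% of genes tested were. That call was lost when any 1 control or LPS-MIC-1 library was left out. Gbp1 was listed at 0 in 8 of the 9 muscle libraries and Gbp4 in all 9 cell libraries.

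Of 14 other IRG and very large inducible GTPase symbols, 11 had a row and 4 passed the filter in each experiment. Tgtp2 stood at 2.74, 2.67 and 2.98 FPKM in control muscle, at 3.10, 3.22 and 4.11 FPKM with LPS and at 12.2, 11.1 and 10.6 FPKM with LPS-MIC-1. Its LPS-MIC-1 libraries lay above all others, and its log2 fold change against LPS was 1.68 ± 0.11 (SE, adjusted p = 5.02e-06). As Tgtp1 had no row, reads of that near-identical gene may be counted in Tgtp2. Gvin1, a very large inducible GTPase, was also called higher against LPS (1.30, adjusted p = 0.00254), so 2 of the 4 tested were, where 9.67% of all genes tested were. With a pseudocount of 1 the list had 1 gene called higher in place of 2. F830016B08Rik, the neighbour of Iigp1, was lower by less than the required size (-0.79, adjusted p = 3.25e-05). In the cells Tgtp2 stood at 0 FPKM in all 3 LPS-MIC-1 libraries and at most 0.426 FPKM elsewhere. Irgq was called higher with LPS (1.35, adjusted p = 1.86e-05), where 10.9% of all genes tested were. With LPS-MIC-1 against LPS, 9930111J21Rik2 (-3.79), 9930111J21Rik1 (-2.33) and Gm5431 (-1.69) were called lower, where 25.6% of all genes tested were. Those 3 genes, unlike Irgm1, Irgm2 and Igtp, had lower means with LPS than in control, none of them called.

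The interferons that induce these GTPases were at or near 0 in the libraries. Ifng did not exceed 0.210 FPKM in any cell library and 0.0727 FPKM in any muscle library. Ifnb1 stood at 0.305, 0.414 and 0.413 FPKM in the LPS cells, was under 0.0962 FPKM in the other cell libraries and was listed at 0 in all muscle libraries. Of the 10 ligands and receptors, the 4 receptor chains passed the filter. In the cells 2 of these, Ifngr2 (-1.63, adjusted p = 9.67e-07) and Ifnar2 (-1.34, adjusted p = 1.06e-06), were called lower with LPS-MIC-1 than with LPS, where 25.6% of all genes tested were. In muscle no receptor chain was called by limma against LPS, 2 of 4 having an unadjusted p under 0.05.

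With LPS-MIC-1 against LPS, most of the JAK-STAT and interferon regulatory factors that act upstream were called lower in the cells and higher in muscle, a difference that was not tested. In the cells, 2 of 12 tested were called higher with LPS, Jak2 (1.86, adjusted p = 9.77e-07) and Nlrc5 (1.77, adjusted p = 7.39e-05). Over all genes 10.9% were called higher. In 10 of the 13 with a row every LPS library lay above every control library, where 39.4% of genes tested did. Among the 10 were Irf7, with control and LPS means of 35.8 and 278 FPKM (2.95, adjusted p = 0.0763), and Stat2, at 7.28 and 42.1 FPKM (2.51, adjusted p = 0.00301), neither called. The fit took a single spread per gene over all 9 libraries, those with LPS-MIC-1 included. Irf7 ran from 32.8 to 37.7 FPKM in control and from 274 to 282 FPKM with LPS, and stood at 7.12, 0.568 and 0 FPKM with LPS-MIC-1. The count of 2 became 4 without LPS-MIC-1 replicate 3, with a pseudocount of 1 and under quantile normalisation, and 5 with only the 6 libraries compared. With LPS-MIC-1 against LPS, 9 of 12 were called lower, where 25.6% of all genes were, led by Irf7 (-8.47, adjusted p = 0.000306), Irf8 (-6.89, adjusted p = 2.28e-05) and Stat2 (-5.20, adjusted p = 2.20e-05), and 1 was called higher, the feedback inhibitor Socs1 (1.87, adjusted p = 7.78e-05). In muscle, 8 of 12 were called higher against LPS, where 9.67% of all genes were, and none lower (0 also at an unadjusted p under 0.05). They were led by Irf7 (3.46, adjusted p = 3.63e-07), Nlrc5 (2.24, adjusted p = 3.43e-05) and Socs1 (2.24, adjusted p = 0.000394). Nlrc5 averaged 0.431 FPKM in control, 0.466 FPKM with LPS and 2.57 FPKM with LPS-MIC-1. It passed the filter through its LPS-MIC-1 libraries, so this count is a description. Irf7, the master regulator of type I interferon genes, stood at 1.76, 2.51 and 2.79 FPKM in LPS muscle and at 25.0, 26.1 and 28.4 FPKM with LPS-MIC-1. Irf1, an activator of GBP genes that was singled out after its values were seen, stood at 4.33, 4.11 and 4.005 FPKM with LPS and at 15.8, 16.7 and 15.4 FPKM with LPS-MIC-1 (1.92, adjusted p = 9.87e-07). Socs1 had been called lower with LPS than in control muscle (-5.79, adjusted p = 1.84e-05), from 49.4, 49.5 and 47.6 FPKM to 0.792, 1.38 and 0.429 FPKM. The median log2 fold change of the 12 against LPS was -2.97 in the cells and 1.88 in muscle.

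Genes for the partners of the GTPases were called in both directions. Of 13 ATG8 conjugation and ubiquitin genes tested, 3 were called higher with LPS-MIC-1 than with LPS in muscle, where 9.67% of all genes were, Gabarapl1 (3.82, adjusted p = 6.54e-10), Map1lc3b (1.34, adjusted p = 1.27e-07) and Trim21 (1.05, adjusted p = 0.00136). Their median log2 fold change was 0.10, near the -0.01 of all genes. In the cells 4 of the 13 were called higher with LPS, where 10.9% of all genes were, led by Sqstm1 (4.12, adjusted p = 6.25e-09), a cargo receptor of autophagy, and by Atg12 (1.85). With LPS-MIC-1 against LPS 4 were called lower, Trim21 (-2.84), Sqstm1 (-2.67), Atg12 (-2.59) and Atg7 (-1.02), and 1, Map1lc3a (1.45, adjusted p = 1.13e-05), was called higher, where 25.6% of all genes were called lower and 24.3% higher, so the share called lower was near that of all genes. Casp4, the gene for caspase-11, was called higher with LPS in the cells (2.48, adjusted p = 2.08e-07) and higher again with LPS-MIC-1 (1.07, adjusted p = 6.53e-06), where Gbp2, Gbp3 and Gbp5 were lower, although this second call was lost under quantile normalisation. In muscle Casp4 was called higher with LPS-MIC-1 than with LPS (2.81, adjusted p = 1.37e-05). Of the 8 caspase-11 and AIM2 inflammasome genes, 5 passed the filter in the cells. With LPS-MIC-1 against LPS, Casp4 was called higher there and 4 were called lower, Il1b (-7.97), Aim2 (-3.44), Casp1 (-1.49) and Gsdmd (-1.41), where 24.3% and 25.6% of all genes were. In muscle 2 passed the filter, with 1 called higher, where 9.67% of all genes were. Of the 5 genes for prenylation and the steps after it, 2 were called higher against LPS in the cells, Fntb (1.29) and Rce1 (1.02). Pggt1b (-2.07) was the 1 called lower, beside the 24.3% of all genes called higher and 25.6% called lower. The higher count fell to 1 without LPS replicate 1, LPS replicate 3, LPS-MIC-1 replicate 2 or LPS-MIC-1 replicate 3, and the lower count became 2 without LPS-MIC-1 replicate 3. None of the 3 tested in muscle was called by limma, with 2 at an unadjusted p under 0.05.

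Other genes with a profile most like the mean of the tested members were ranked by Pearson's r over the 9 libraries of each experiment, which fall into 3 groups of 3. In the cells they were Rybp (r = 0.991), Ubr2, Pkn3, Dock5 and Nat6 (r = 0.989 for the last), all highest with LPS. Each tested member was correlated with the mean of the other tested members instead, at between 0.498 for Gbp2 and 0.924 for Gbp5. These values cannot be set beside those of the listed genes, which were the highest of all other genes tested. In muscle they were 4930526D03Rik (r = 0.998), Tap1, Supt5h, Sec61b and Tmem167b (r = 0.992 for the last). Tap1, the peptide transporter of antigen presentation, stood at 2.13 ± 0.245 FPKM in control, 1.79 ± 0.346 FPKM with LPS and 12.6 ± 0.838 FPKM with LPS-MIC-1 (SD, n = 3). The members in muscle correlated with the mean of the other members at 0.929 or more, apart from Gbp3 at 0.393.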

How the data were processed

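RNA-seq values were taken from 2 tables deposited by the authors, 1 for C2C12 and 1 for gastrocnemius, with FPKM per gene in 9 libraries each. Per the labels and the study's methods, the authors quantified reads with kallisto and compared groups with DESeq2, and the labels name the mouse build mm9. The authors' result tables were used for their base mean, a normalised count signal averaged over the libraries compared, and their fold changes and p-values were not used. Muscle carried 11 unnamed columns, 9 of them with values, which were not used. Reads per library are not given in the sources used here, so no counting interval could be set on an FPKM value.

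In R 4.3.3 with limma 3.58.1, log2(FPKM + 0.1) was fitted per experiment over 9 libraries in 3 groups with a trended prior, and the method was checked on data with known changes. The test took genes averaging over 1 FPKM, 10877 in the cells and 9475 in muscle. Single values outside the fit were compared by exact permutation, which cannot go under 0.1 for 3 against 3. Figures were drawn with Python 3.11.15 and matplotlib 3.10.9. The tables were normalised separately, so cells and muscle were not tested against one another. Alternatives were other pseudocounts (1 and 0.01), no filter, a filter of 5 FPKM, median-ratio scaling, quantile normalisation, no trend, the 6 libraries compared, the replicate number as a block, and leaving out each library.

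The members and all lists were chosen with earlier results of these data known. Named genes were all members, the 2 to 4 members of each list with the largest fold change in a comparison, the 3 most abundant of each marker list, and the 5 genes most like the mean profile of the members. No sequence or coordinate is given, as no sequence of these genes was used here.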

Additional observations from a re-analysis of the deposited data

Results flagged for a closer look

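Changes ran in opposite directions in the cells and in muscle, with every library of a group on 1 side of every library of the other in each experiment. None of these differences between experiments was tested, since the tables were normalised separately, and in the cells the LPS-MIC-1 libraries also differ from the others in their marker genes. Against LPS, LPS-MIC-1 gave log2 fold changes in cells and muscle of -1.64 and 3.60 for Gbp2, -4.51 and 2.74 for Gbp5, -3.51 and 1.59 for Irgm1, -4.06 and 2.36 for Irgm2, and -2.80 and 1.43 for Igtp. Iigp1, not fitted in the cells, was there at 0.123 times its LPS mean and in muscle had a log2 fold change of 2.25. Against control, LPS-MIC-1 gave -1.93 and 1.27 for Irgm1, -3.41 and 1.95 for Irgm2, and -2.17 and 1.32 for Igtp. LPS against control gave 4.98 and -0.40 for Gbp5 and 0.64 and -0.41 for Irgm2, the first alone being called.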

How the results depend on the processing

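Of 783 values of single members under the alternatives, 768 kept their direction and their side of the call, 7 kept the direction and lost the call, and 8, none called under any setting, changed sign. In the cells with LPS-MIC-1 against control these were Gbp3 at -0.79 and Gbp5 at -0.82 under quantile normalisation, Gbp5 at -0.11 without LPS-MIC-1 replicate 1 and Ifi47 at -0.17 without control replicate 3. In muscle with LPS they were Gbp2 at -0.11 without control replicate 2, and Gbp3 at 0.65, 0.13 and 0.86 without control replicate 1, control replicate 3 and LPS replicate 3. Leaving out each library in turn, these ran from -0.11 to 0.83 for Gbp5 and -0.17 to 1.42 for Ifi47 in the cells, and from -0.11 to 0.15 for Gbp2 and -1.28 to 0.86 for Gbp3 in muscle. Requiring a mean over 5 FPKM, which leaves fewer members tested, changed the counts of called members to 1 higher with LPS in the cells (4 before), 2 lower with LPS-MIC-1 against LPS (6 before), 0 higher against control (1 before), and 4 higher in muscle in both LPS-MIC-1 comparisons (7 before). Gbp3 in the cells lost its call under quantile normalisation, at 1.93 (adjusted p = 0.0196) with LPS and -2.73 (adjusted p = 0.00252) with LPS-MIC-1 against LPS, and in the latter also with only the 6 libraries compared (adjusted p = 0.00123). Irgm1 in muscle against control was 0.99 with a pseudocount of 1. The cause of these losses was not tested. With the replicate number as a block the counts were 4 higher, 6 lower, and 1 higher and 3 lower in the cells and 7 and 7 higher in muscle, so the block changed no call. Libraries of the same number did not deviate together (r from -0.08 to 0.08), so the numbers were not taken as pairs. Of 1512 counts for the other lists under the alternatives, 36 were lower and 28 higher by more than 1.5 times. Over all genes, the calls in muscle moved most: 62 higher and 56 lower with LPS became 37 and 34 with a pseudocount of 1 and 31 and 26 over 5 FPKM, and the 56 became 88 without a filter. The 515 lower calls against LPS became 275, 204 and 798 in that order and the 580 against control 341, 215 and 915, and over 5 FPKM the 916 and 884 higher calls became 452 and 462. In the cells, 2300 higher calls against control became 1533 over 5 FPKM. Values near 0 FPKM, Iigp1 in the cells and Ifi47 and Gbp3 in muscle above all, are uncertain in size. The authors' mean normalised counts did not exceed 8.02 for Iigp1 in the cells. In muscle they were 79.7 and 78.3 for Gbp3 and 104 for Ifi47.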
